A study of Homo sapiens with 12 samples.

Results

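NRF1 against empty vector is the comparison of 6 of the 12 RNA-seq libraries in a study of the Cap'n'collar transcription factors, 3 libraries of cells given an NRF1 transgene and 3 of cells given the empty plasmid. The libraries were chosen by their transfection alone and read over all genes, of which 14649 of the 38019 in the table had enough counts to be tested. All 12 libraries came from HEK293T cells, a line derived from human embryonic kidney, harvested 24 h after transient transfection with FuGENE, and the labels describe the 3 libraries of a group as independent experiments. The NRF1 transgene was a codon-optimized, FLAG-tagged sequence without the N-terminal signal that anchors the protein in the endoplasmic reticulum (ER), expressed from a plasmid. FLAG-tagged NRF2 carrying the T80D substitution and a truncated, codon-optimized, FLAG-tagged NRF3 were transfected into the other libraries, and enter only where they are named. The share of cells that took up plasmid is not given in the sources used here, and in bulk RNA a large change in few cells cannot be told apart from a small change in all, nor fewer cells of a type from less RNA per cell.

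NRF1, the product of NFE2L1, is a basic leucine zipper factor that pairs with small MAF proteins and binds antioxidant response elements. The full-length protein is held in the ER, from which it is extracted, deglycosylated and cleaved before it reaches the nucleus, and it is best known for raising the genes of the proteasome when proteasomes are inhibited. The related factor NRF2 is known for the genes of glutathione synthesis, quinone reduction and heme breakdown.

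The libraries were close in depth, at 13573453 to 13595481 counts with empty vector and 13700620 to 13810535 with NRF1. NRF1 replicate 1 lay nearer to empty vector than the other NRF1 libraries did: over 11723 genes its root mean square difference from the vector libraries was 0.206 to 0.246 on the log2 scale, against 0.257 to 0.307 for NRF1 replicates 2 and 3, while vector libraries differed from each other by 0.18 to 0.2. The share of counts from the mitochondrial genome was 6.23% to 7.53% with empty vector, 5.06% in NRF1 replicate 1, and 3.77% and 3.44% in NRF1 replicates 2 and 3. All 7 markers of the line, among them VIM, CDH2 and KRT18, were measured, with a summed level of 737 to 761 CPM, the counts of a gene scaled to a common library total, with empty vector and 650 to 703 with NRF1. Most of this sum was VIM and CDH2, at means of 481 and 142 CPM with empty vector, while PAX2 and LHX1 had 1.91 and 3.5. In the test described below VIM and CDH2 were lower with NRF1 (log2 fold changes -0.15 and -0.19) and KRT8 and KRT18 higher. Of these calls only that of KRT8 was kept without each single library. Of 17 markers of blood, vessel, liver, muscle and connective tissue cells, 13 had a mean count under 10, CDH5 had no count in any of the 6 libraries, and the summed level was 18.7 to 23.1 CPM with empty vector and 17.4 to 21.8 with NRF1. Most of this sum was the connective tissue marker COL1A1, at a mean of 14 CPM with empty vector.

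NFE2L1 itself did not pass the test, at 95.19, 100.4 and 101.1 CPM with empty vector and 97.98, 112.4 and 112.2 CPM with NRF1 (log2 fold change 0.12, standard error (SE) 0.06, adjusted p = 0.166, quasi-likelihood test of edgeR, adjusted by Benjamini-Hochberg). The groups overlapped, since NRF1 replicate 1 lay within the vector range. Whether reads of the codon-optimized transgene were counted under NFE2L1 was not tested, so this value is no check of the transfection. NFE2L2, the gene of NRF2, did not pass (0.08, adjusted p = 0.33). NFE2L3, the gene of NRF3, was higher by 0.22 (adjusted p = 0.0302). The NFE2L3 call was lost without each of the 3 vector libraries and NRF1 replicates 2 and 3 (largest adjusted p 0.18).

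NRF1 changed many genes by small amounts and few genes by a large amount. HMOX1 stood far above every other gene that rose, GCLM came next among genes that had a mean count over 50, and the genes that fell did so by more than the genes that rose and included most HOX genes and much of the mitochondrial genome. At an adjusted p under 0.05, 946 genes (6.46% of those tested) rose and 1043 (7.12%) fell, with a median log2 fold change of 0.22 and -0.42. Over all genes tested the median was -0.0024. The NRF1 libraries all lay above the vector libraries in 2259 of the genes tested (15.4%) and all below them in 2351 (16%). Among the genes that passed, 892 that rose and 984 that fell were apart in this way, so a lack of overlap adds little to a call. Of the genes that rose, 916 changed by less than 0.5 on the log2 scale and 4 by more than 1, and of those that fell the counts were 646 and 75.

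These counts depended on which libraries stood in the fit. Without NRF1 replicate 1 they were 2015 and 1907, and without each of the other 5 libraries in turn (empty vector replicates 1, 2 and 3 and NRF1 replicates 2 and 3) they were 184 to 404 and 481 to 685. In a fit that also held the NRF2 and NRF3 libraries, which takes a shared spread from all 4 groups, 36 genes rose (0.238% of 15135) and 229 fell (1.51%). All 36 of these genes were among the 946, and 219 of the 229 were among the 1043. A total of 118 of the 946 and 351 of the 1043 held their call without each single library in turn, and below a gene is said to hold where it did so, which did not always go with passing in the fit of 12 libraries. The counts of the gene lists given below moved in the same way, most of them being highest without NRF1 replicate 1: over the libraries left out, 0 to 9 of the 19S subunits, 0 to 22 of the splicing factors, 2 to 19 of the MYC-linked genes, 3 to 16 of the ER genes, 3 to 13 of the COPI and COPII genes and 1 to 13 of the glycolysis genes rose, and 12 to 22 of the mitochondrial transfer and ribosomal RNAs, 5 to 25 of the small nucleolar RNAs and 12 to 73 of the ZNF genes fell. The median SD per gene on the log2 scale was 0.0718 in the vector libraries, 0.0869 in the NRF1 libraries, 0.103 in those of NRF2 and 0.166 in those of NRF3.

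Which changes could pass differed with depth. Among the 3331 genes with a mean count of 1000 or more, 16.6% rose and 3.66% fell, and among the 4367 genes under 100 the shares were 0.687% and 6.59%. The median SE was 0.05 in the first class and 0.23 in the second, so that a gene with few counts had to change more than an abundant one to pass. This applies to a rise and a fall alike, and why the balance of rises and falls differed with depth was not tested. The genes that rose had a median mean count of 1281 and those that fell one of 235.3, against 310 over all genes tested.

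**Figure D1:**
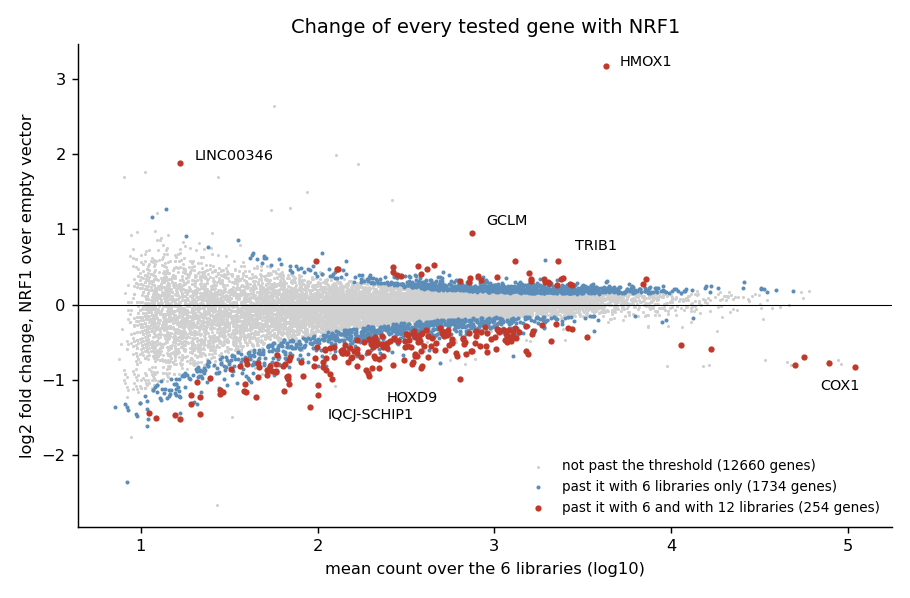
Change of every tested gene but GH2, with the mean count over the 6 libraries on the x axis (log10) and the log2 fold change of NRF1 over empty vector on the y axis. Grey points did not pass, blue points passed with the 6 libraries only and red points also passed in the fit of 12 libraries; HMOX1 lies alone at 3.17, the blue points above 0 lie close to the axis at high counts, and most red points lie below 0.

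HMOX1, the heme oxygenase that opens the heme ring, was the most changed of the genes that rose. Its level was 57.6, 65.2 and 62.9 CPM in the 3 vector libraries and 473, 581 and 615 CPM in the 3 NRF1 libraries. Every NRF1 library was far above every vector library, with NRF1 replicate 1 the lowest of the 3. The log2 fold change was 3.17 (SE 0.10, adjusted p = 1.13e-07) and stayed between 3.09 and 3.27 when any single library was left out. GCLM, the modifier subunit of the ligase that limits glutathione synthesis, was at 37.94, 32.92 and 40.05 CPM with empty vector and at 65.8, 69.3 and 79.7 CPM with NRF1. The groups were again apart, and the log2 fold change of 0.95 (SE 0.08, adjusted p = 3.26e-08) held. ALAS1, the first and rate-limiting enzyme of heme synthesis outside red cells, had 95.0 to 100 CPM with empty vector and 126 to 135 CPM with NRF1, a log2 fold change of 0.43 (SE 0.05, adjusted p = 4.41e-06) that held. HMOX1, GCLM and ALAS1 also passed in the fit of 12 libraries.

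LINC00346, a long noncoding RNA, rose from very few counts. It had 7, 6 and 8 counts in the vector libraries and 23, 28 and 28 in the NRF1 libraries, with no overlap (log2 fold change 1.88, SE 0.32, adjusted p = 0.000298). MIR4435-2HG, the host transcript of a microRNA, went from 7.75 to 8.10 CPM with empty vector to 10.4 to 11.5 CPM with NRF1 (0.48, SE 0.11, adjusted p = 0.00674). UNKL, a zinc finger protein related to the Drosophila gene unkempt, went from 26.7 to 28.0 CPM to 38.2 to 41.0 CPM (0.53, SE 0.07, adjusted p = 8.71e-06). LINC00346, MIR4435-2HG and UNKL also passed in the fit of 12 libraries and held.

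GCLM, LINC00346 and UNKL are shown by their promoters, taken from the 30 promoters found for the 36 genes that rose in both fits, among which HMOX1 was not, since they changed most among those that carry the antioxidant response element core TGACNNNGC there (either strand). The sequences are those of RefSeq on GRCh38.p14, from 250 bases before to 50 bases after the annotated start, read 5′ to 3′ on the gene's own strand, with matches in capitals. Matches on the opposite strand stand in capitals as their reverse complement. GCLM lies on the minus strand at chr1:93909381-93909680 with a match that begins 34 bases before the start. LINC00346 lies on the minus strand at chr13:110870259-110870558 with matches that begin 100 and 54 bases before the start, the first of which, TGACTCAGC on the opposite strand, also holds the AP-1 motif TGACTCA. UNKL lies on the minus strand at chr16:1379603-1379902 with a match that begins 86 bases before the start.
GCLM: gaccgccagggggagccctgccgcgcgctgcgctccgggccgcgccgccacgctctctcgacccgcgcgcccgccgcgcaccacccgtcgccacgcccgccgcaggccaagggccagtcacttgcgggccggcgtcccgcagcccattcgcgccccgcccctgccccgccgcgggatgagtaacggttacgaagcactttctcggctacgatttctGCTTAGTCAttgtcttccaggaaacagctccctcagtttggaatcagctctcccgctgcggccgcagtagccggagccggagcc
LINC00346: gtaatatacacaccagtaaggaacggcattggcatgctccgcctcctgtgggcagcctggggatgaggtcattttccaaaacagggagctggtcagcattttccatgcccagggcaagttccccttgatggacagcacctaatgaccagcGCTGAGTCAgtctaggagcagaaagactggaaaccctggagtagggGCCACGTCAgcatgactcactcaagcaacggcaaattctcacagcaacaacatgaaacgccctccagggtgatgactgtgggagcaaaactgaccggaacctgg
UNKL: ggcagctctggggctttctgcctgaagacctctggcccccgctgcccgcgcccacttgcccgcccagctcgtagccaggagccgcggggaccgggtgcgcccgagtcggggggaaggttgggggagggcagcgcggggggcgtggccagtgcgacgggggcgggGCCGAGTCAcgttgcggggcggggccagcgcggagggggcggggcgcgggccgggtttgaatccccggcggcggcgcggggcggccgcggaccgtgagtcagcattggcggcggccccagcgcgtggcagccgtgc
The core TGACNNNGC stood in 5 of these 30 promoters (16.7%), in 17.6% of the promoters of the genes that rose with the 6 libraries, in 14% of those of the genes that fell, in 10.9% of those of the genes that fell in both fits, in 14.9% of those of all genes tested, and in 13.6% of all 27305 promoters of this length. The longer form TGACTCAGC, which is a case of the former, was rare. It stood in 8 of 774 promoters of the genes that rose (1.03%) and in 3 of 769 of those that fell (0.39%). Among all genes tested it stood in 48 of 11287 (0.425%), and in 0.564% of all promoters. A match in this window is a description of the letters there, and binding was not measured.

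Among 25 tested genes of heme and iron handling 5 rose (20%, against 6.46% of all genes; median log2 fold change 0.02), and 4 of these held. Besides HMOX1 and ALAS1 these were FTH1, the heavy chain of the iron store ferritin, at 235 to 246 CPM with empty vector and 275 to 298 CPM with NRF1 (0.27, SE 0.05, adjusted p = 0.000947), and SLC39A14, a zinc and iron importer, at 46.1 to 46.7 and 54.7 to 58.2 CPM (0.28, SE 0.06, adjusted p = 0.00316). Neither FTH1 nor SLC39A14 overlapped between the groups, and neither passed in the fit of 12 libraries. Of 34 genes of the glutathione and thioredoxin systems 5 rose and 1 fell (14.7% and 2.94%, against 6.46% and 7.12% of all genes, median 0.01), and GCLM alone held. PRDX1, a peroxiredoxin that reduces hydrogen peroxide, was higher by 0.21 (SE 0.05, adjusted p = 0.00706) and lost the call without empty vector replicate 3 (largest adjusted p 0.059). Of 19 enzymes of quinone, carbonyl and NADPH metabolism 4 rose (21.1%, median 0.10), none of which held, among them NQO2, a quinone reductase related to NQO1, by 0.32 (SE 0.07, adjusted p = 0.00424). NQO1, the quinone reductase most often used to read NRF2 activity, had 7.19, 8.34 and 6.55 CPM with empty vector and 7.46, 6.53 and 8.21 CPM with NRF1, fully overlapping (0.01, SE 0.13, adjusted p = 0.98). The NQO2 call was lost without NRF1 replicate 2 (adjusted p 0.055).

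KEAP1, the adaptor that hands NRF2 to a ubiquitin ligase, was higher by 0.25 (SE 0.06, adjusted p = 0.00417, held but did not pass in the fit of 12 libraries), and CUL3, the scaffold of that ligase, by 0.18 (adjusted p = 0.0287). RBX1, its RING subunit, fell by 0.20 (adjusted p = 0.0438). The calls of CUL3 and RBX1 were lost without each of the 3 vector libraries and NRF1 replicates 2 and 3 (adjusted p up to 0.14 and 0.23). Of 17 tested genes that extract, deglycosylate, cleave or degrade NRF1, 1 rose and 1 fell (5.88% each, against 6.46% and 7.12% of all genes). NPLOC4, a partner of the extracting ATPase, rose by 0.17 (adjusted p = 0.0438), with overlap between the groups. OGT, which attaches N-acetylglucosamine to NRF1 and other proteins, fell by 0.22 (adjusted p = 0.00995). The protease gene DDI2 had a log2 fold change of 0.21 (SE 0.10, adjusted p = 0.174). Neither call held: NPLOC4 was lost without each of the same 5 libraries and OGT without empty vector replicates 1 and 3 and NRF1 replicate 2 (adjusted p up to 0.22 and 0.098).

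The other genes that rose in both fits by the largest amounts were of mixed kinds, several of them of the cytoskeleton and the cell surface. TRIB1, a pseudokinase that brings proteins to a ubiquitin ligase, was at 134, 130 and 136 CPM with empty vector and 183, 205 and 209 CPM with NRF1 (0.58, SE 0.06, adjusted p = 9.69e-08). TUBB6, a beta-tubulin, went from 74.8 to 77.6 CPM to 103 to 123 CPM (0.58, SE 0.06, adjusted p = 3.32e-07). CNN2, an actin-binding calponin, went from 20.6 to 24.2 CPM to 28.2 to 34.1 CPM (0.51, SE 0.08, adjusted p = 0.000183). KRT8, a keratin of simple epithelia, went from 15.5 to 16.4 CPM to 20.9 to 24.2 CPM (0.50, SE 0.09, adjusted p = 0.0005), with its partner KRT18 higher by 0.22 (adjusted p = 0.0360). TRIB1, TUBB6, CNN2 and KRT8 held, with the groups apart, and KRT18 was lost without each of the 3 vector libraries and NRF1 replicates 2 and 3 (adjusted p up to 0.2). Further genes that rose in both fits were LRRC8E, a subunit of volume-regulated anion channels (0.57), CSPG5, a proteoglycan of the nervous system (0.47), EPHA8, an ephrin receptor (0.43), DAGLB, a diacylglycerol lipase (0.40), and TSPAN15, a tetraspanin (0.40), each of which held. CYP2J2, a cytochrome P450 of arachidonic acid metabolism, rose by 0.48 and lost the call without empty vector replicates 1 and 3 (adjusted p up to 0.055). NRF1 replicate 1 was the lowest of the 3 NRF1 libraries in 31 of the 36 genes that rose in both fits.

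**Figure D2:**
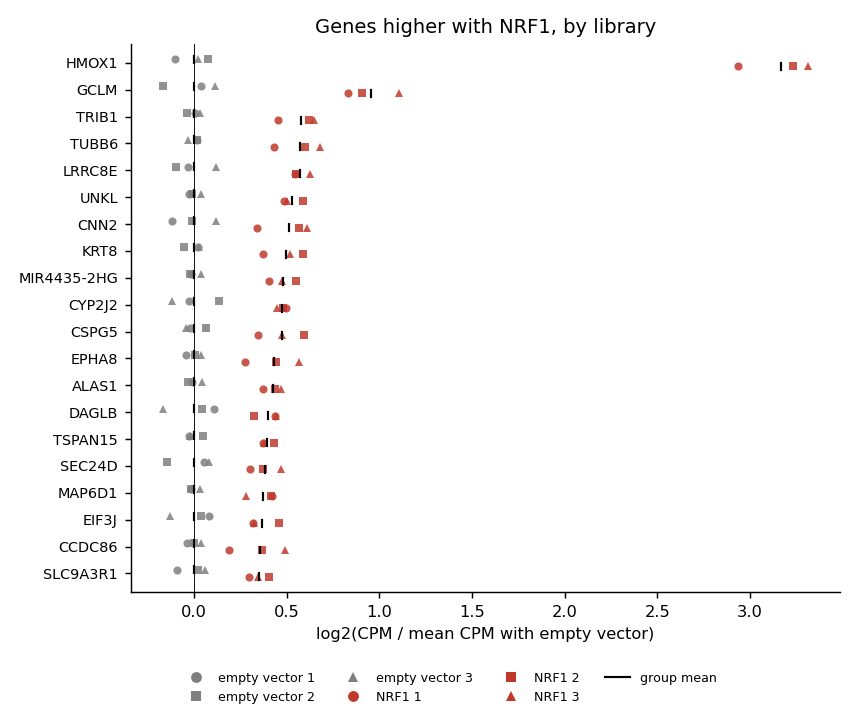
The 20 genes of largest rise in both fits among those with a mean count of 50 or more and no overlap between the groups. The x axis is log2 of each library's CPM over the mean CPM with empty vector. Empty vector is in grey and NRF1 in red, with a symbol for each replicate and a black bar for the group mean. By that choice the 3 NRF1 libraries lie above the 3 vector libraries in all 20 genes. NRF1 1 (circle) is the lowest NRF1 library in 17 of them.

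Proteasome genes, the class for which NRF1 is best known, moved little. None of the 14 subunits of the 20S core passed in either direction in edgeR's test (0 also by DESeq2; at an unadjusted p under 0.05, 0 were higher and 3 lower; without NRF1 replicate 1, 4 were lower), and their median log2 fold change was -0.01. PSMB5, the chymotrypsin-like subunit, was at 264, 269 and 263 CPM with empty vector and 287, 282 and 283 CPM with NRF1, apart but by 0.10 only (SE 0.05, adjusted p = 0.176). PSMA4, an alpha-ring subunit, was at 397 to 422 and 399 to 450 CPM (0.03, adjusted p = 0.773). Of the 19 subunits of the 19S regulator, which unfolds substrates, 4 rose (21.1%, median 0.08): PSMD2 by 0.21 (SE 0.05, adjusted p = 0.0124), PSMD11 by 0.20 (adjusted p = 0.0375), PSMD12 by 0.17 (adjusted p = 0.0342) and PSMD4 by 0.15 (adjusted p = 0.0433). Each of these 4 calls was lost without each of the 3 vector libraries and NRF1 replicates 2 and 3, with adjusted p up to 0.23. Neither PSMC3, an ATPase of the regulator (0.12, adjusted p = 0.0943), nor PSMD6 (0.07, adjusted p = 0.332) passed. Of 18 proteasome activators, inducible subunits and assembly factors 2 rose (11.1%, median 0.02), neither of which held. The list of 19S subunits had a median mean count of 2900, in the range where 16.6% of all genes rose.

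Chaperones fold proteins and hold them soluble. Of 34 tested HSP70 and HSP90 chaperones and their regulators 15 rose (44.1%, against 6.46% of all genes and 16.6% of genes with a mean count of 1000 or more; median log2 fold change 0.16 and median mean count 2900). HSPA8, the constitutive cytosolic HSP70, was at 3467, 3365 and 3192 CPM with empty vector and 3736, 3736 and 3912 CPM with NRF1, a separation of the groups by 0.18 only (SE 0.06, adjusted p = 0.0299). HSPA9, the mitochondrial HSP70, was higher by 0.18 (adjusted p = 0.0175) and HSPA4, an exchange factor of the HSP110 family, by 0.17 (adjusted p = 0.0309). These 3 calls were lost without each of the vector libraries and NRF1 replicates 2 and 3 (adjusted p up to 0.2), and the whole list counted 5 to 16 members over the libraries left out. BAG3, an HSP70 partner in selective autophagy, FKBP4 and AHSA1, which assist HSP90, and CDC37, which brings kinases to HSP90, rose by 0.30, 0.24, 0.24 and 0.24 and held (adjusted p 0.000859, 0.00269, 0.00317 and 0.00273). None of the 15 genes passed in the fit of 12 libraries.

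Of 23 J-domain co-chaperones, which start the HSP70 cycle, 7 rose (30.4%, median 0.11), and 3 of these held. DNAJA1, a cytosolic J-protein of HSPA8, was at 468, 462 and 470 CPM with empty vector and 572, 609 and 588 CPM with NRF1, clearly apart, and also passed in the fit of 12 libraries (0.34, SE 0.05, adjusted p = 6.03e-05). DNAJC5, the cysteine string protein of secretory vesicles, rose by 0.32 (adjusted p = 0.00043) and DNAJC7 by 0.27 (adjusted p = 0.00115), and neither passed in the fit of 12 libraries. DNAJA2 (-0.01, adjusted p = 0.965) and DNAJC1 (-0.01, adjusted p = 0.898) did not pass. Among 14 genes of the CCT chaperonin and prefoldin 2 rose (14.3%, against 6.46% of all genes, median 0.11). This list had a median mean count of 8480, in the range where 16.6% of all genes rose. PFDN2 rose by 0.27 (adjusted p = 0.0018, held) and PFDN6 by 0.20 (adjusted p = 0.0245). The chaperonin subunits CCT2 (0.13, adjusted p = 0.0897), CCT5 (0.15, adjusted p = 0.0540) and CCT8 (0.09, adjusted p = 0.232) did not pass. PFDN6 was lost without each library but NRF1 replicate 1 (adjusted p up to 0.13), and neither PFDN2 nor PFDN6 passed in the fit of 12 libraries. Of 37 genes of ubiquitin conjugation 5 rose and 1 fell (against 6.46% and 7.12% of all genes, median 0.06), none of which held. The median mean count of these 37 genes was 1680, in the range where 16.6% of all genes rose and 3.66% fell. Their rises were thus no more frequent than those of all genes in that range.

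**Figure D3:**
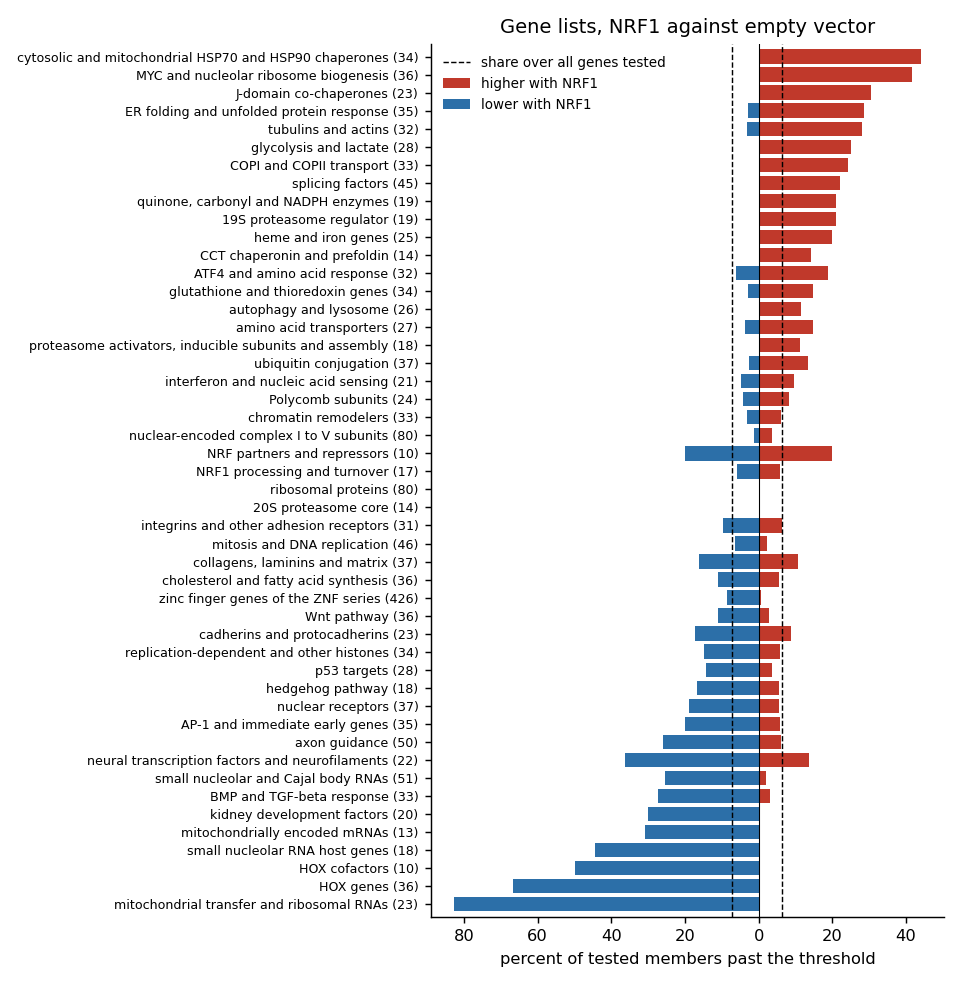
Percent of the tested members of 48 gene lists that rose (red, to the right) or fell (blue, to the left) with NRF1, with the number of tested members in brackets and dashed lines at the share over all genes tested, 6.46% and 7.12%. HSP70 and HSP90 chaperones and the MYC and nucleolar genes reach 44.1% and 41.7% higher, the 20S proteasome core and the ribosomal proteins have no bar, and HOX genes and the mitochondrial transfer and ribosomal RNAs reach furthest to the left.

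Genes of ribosome assembly, splicing, the secretory pathway and sugar use rose in shares to be read against 6.46% of all genes and 16.6% of those with a mean count of 1000 or more. Of 36 MYC-linked and nucleolar genes 15 rose (41.7%, median 0.12, median mean count 3000), and 2 of these held. LYAR, a nucleolar factor of ribosomal RNA processing, was at 124, 120 and 123 CPM with empty vector and 143, 163 and 159 CPM with NRF1 (0.34, SE 0.06, adjusted p = 0.000166), and it also passed in the fit of 12 libraries. NCL, the nucleolar protein nucleolin, went from 1644 to 1735 CPM to 1868 to 2216 CPM (0.31, SE 0.06, adjusted p = 0.00136, held but did not pass in the fit of 12 libraries). MYC itself was higher by 0.22 (SE 0.05, adjusted p = 0.00654) and lost the call without empty vector replicate 1 and NRF1 replicate 2 (adjusted p up to 0.07). None of the 80 ribosomal protein genes passed (0 also by DESeq2; 1 higher and 8 lower at an unadjusted p under 0.05), with a median of -0.07, but without NRF1 replicate 1 a total of 40 were lower. Of 45 splicing factors 10 rose (22.2%, median 0.08, median mean count 5760), none of which held.

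Of 35 genes of ER folding and the unfolded protein response 10 rose and 1 fell (28.6% and 2.86%, median 0.11), and 3 of the 10 held. SEC24D, a cargo adaptor of COPII vesicles, was at 53.1, 46.1 and 54.0 CPM with empty vector and 62.9, 66.1 and 70.7 CPM with NRF1 (0.38, SE 0.07, adjusted p = 0.000342). DNAJB11, an ER-resident J-protein, rose by 0.28 (adjusted p = 0.00103), and SEC61A1, the channel through which proteins enter the ER, by 0.30 (adjusted p = 0.000361). The groups were apart for SEC24D, DNAJB11 and SEC61A1, and SEC24D and DNAJB11 also passed in the fit of 12 libraries. TMED9, a cargo receptor of early vesicles, likewise passed in both fits (0.28, adjusted p = 0.00101). The gene listed as BLOC1S5-TXNDC5, a name for transcripts that join 2 neighbouring genes, rose by 0.27 (adjusted p = 0.00114) beside TXNDC5, an ER disulfide isomerase counted separately (0.19, adjusted p = 0.0331), a call lost without each of the 3 vector libraries and NRF1 replicates 2 and 3 (largest adjusted p 0.17). How the counting divided reads between these names is not given in the sources used here. Of 33 COPI and COPII genes 8 rose (24.2%, median 0.07), and 3 held. These were SEC24D, which stands on both this list and that of ER folding, ARCN1, a COPI coat subunit (0.23), and KDELR1, which returns ER proteins from the Golgi (0.22). Neither ARCN1 nor KDELR1 passed in the fit of 12 libraries.

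Of 28 genes of glycolysis and lactate handling 7 rose (25%, median 0.13). SLC2A1, the glucose transporter GLUT1, was at 53.7 to 55.5 CPM with empty vector and 63.3 to 74.4 CPM with NRF1 and passed in both fits (0.33, SE 0.06, adjusted p = 0.000992), and it was the 1 gene of the list that held. Among 32 genes of the ATF4 and amino acid response 6 rose and 2 fell (18.8% and 6.25%, against 6.46% and 7.12% of all genes, median 0.13). SLC7A5 and SLC1A5, which import leucine and glutamine, rose by 0.35 (adjusted p = 0.000178) and 0.32 (adjusted p = 0.000755). DDIT4, which restrains mTORC1 signalling under stress, fell by 0.52 (adjusted p = 0.000779). SLC7A5, SLC1A5 and DDIT4 held, and none of them passed in the fit of 12 libraries. DHCR7, the last enzyme of cholesterol synthesis, rose in both fits by 0.34 (adjusted p = 0.000187), in a list of 36 lipid genes where 2 rose and 4 fell (5.56% and 11.1%).

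RNAs of the mitochondrial genome were lower with NRF1 in all 3 libraries. All 13 mitochondrial mRNAs, which encode subunits of the respiratory chain and ATP synthase, were lower in each NRF1 library than in each vector library, with a median log2 fold change of -0.78. Of all genes tested 16% were apart in this direction. COX1, a core subunit of cytochrome c oxidase, was at 10477, 9281 and 11262 CPM with empty vector and 7165, 5262 and 4997 CPM with NRF1. The drop was smaller in NRF1 replicate 1 than in the other NRF1 libraries (-0.83, SE 0.17, adjusted p = 0.0405). In the fit of 6 libraries 4 of the 13 passed (30.8%, against 7.12% of all genes), namely COX1, COX2 (-0.78, SE 0.13, adjusted p = 0.0153), CYTB (-0.80, SE 0.16, adjusted p = 0.0415) and ND3 (-0.59, SE 0.09, adjusted p = 0.00365), and COX2 and ND3 held. COX1 was lost without empty vector replicates 1 and 3 and NRF1 replicates 2 and 3 (adjusted p up to 0.098), and CYTB without each vector library and NRF1 replicate 2 (up to 0.11). The count was 12 in the fit of 12 libraries, 13 by DESeq2 and 13 without NRF1 replicate 1.

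The ribosomal and transfer RNAs of the same genome behaved alike, with 19 of 23 lower (82.6%, median -0.77), 11 of which held. RNR1, the small ribosomal RNA, was at 984, 941 and 1040 CPM with empty vector and 785, 655 and 599 CPM with NRF1, without overlap (-0.54, SE 0.08, adjusted p = 0.00143, held). The larger RNR2 fell by 0.70 (SE 0.15, adjusted p = 0.0462) and lost the call without empty vector replicates 1 and 3 and NRF1 replicate 2 (adjusted p up to 0.11). Among the transfer RNAs TRNY fell by 0.77 (SE 0.10, adjusted p = 1.98e-05), TRNC by 0.81 (SE 0.13, adjusted p = 0.000162) and TRNL2 changed by -1.15 (SE 0.18, adjusted p = 0.000117), and all 3 passed in both fits and held. The share of mitochondrial counts in each library, given above, moved with these values, and its part in the result was not tested. The nuclear genes for the same complexes did not follow, as 3 of 80 rose and 1 fell (3.75% and 1.25%), with a median of -0.04, although without NRF1 replicate 1 a total of 28 fell. TOMM40, the import pore of the outer mitochondrial membrane, rose in both fits by 0.27 (SE 0.05, adjusted p = 0.0015).

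**Figure D4:**
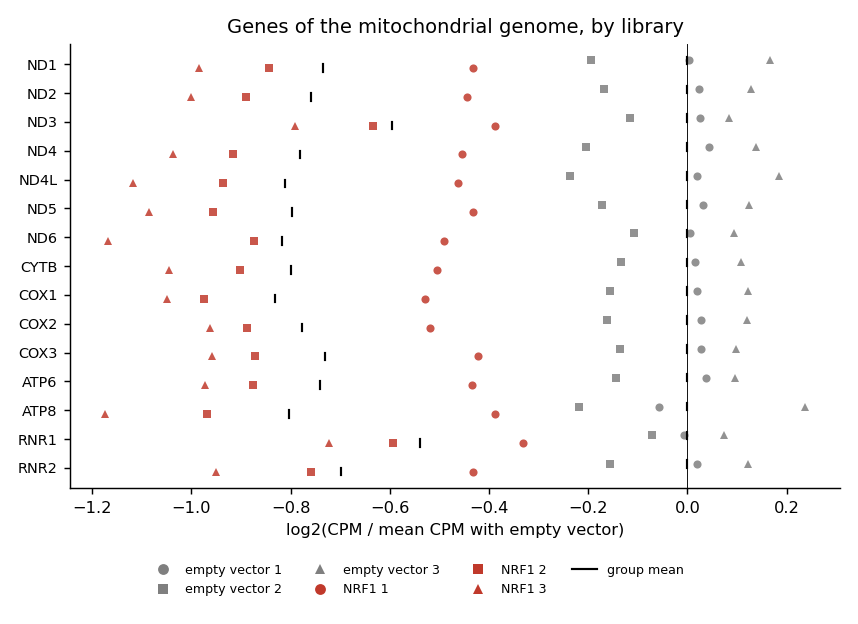
The 13 mRNAs and 2 ribosomal RNAs of the mitochondrial genome as log2 of each library's CPM over the mean CPM with empty vector (x axis), drawn as for the genes that rose. In all 15 genes, against 16% of all genes tested, the 3 NRF1 libraries lie below the 3 vector libraries, NRF1 1 (circle) nearest to them.

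HOX genes, which set position along the body axis and stay active in this kidney line, fell across all 4 clusters. Of 36 tested HOX genes 24 fell (66.7%, against 7.12% of all genes), with a median log2 fold change of -0.43, and 16 of these held. The count was 13 in the fit of 12 libraries and 16 to 26 when single libraries were left out. By cluster, 8 of 11 HOXA genes fell, 6 of 9 HOXB, 5 of 8 HOXC and 5 of 8 HOXD, with medians of -0.32, -0.49, -0.42 and -0.42.

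HOXD9 changed most among the HOX genes. HOXD9 was at 18.35, 18.44 and 19.80 CPM with empty vector and 10.86, 9.505 and 9.004 CPM with NRF1 (-0.94, SE 0.10, adjusted p = 5.84e-07). HOXD10 beside it went from 38.2, 32.5 and 38.1 CPM to 23.2, 21.0 and 17.5 CPM (-0.82, SE 0.09, adjusted p = 1.34e-06), and HOXB3 from 10.8, 10.1 and 12.7 CPM to 6.23, 6.68 and 4.87 CPM (-0.91, SE 0.13, adjusted p = 5.12e-05). None of these overlapped. HOXA10, with the highest counts of the list, fell least among those that passed in both fits, from 175 to 178 CPM to 147 to 149 CPM (-0.25, SE 0.05, adjusted p = 0.0015). HOXB6 fell by 0.60 (SE 0.07, adjusted p = 1.64e-06). Of the genes at the 5′ end of their clusters HOXA13 (-0.22, SE 0.11, adjusted p = 0.196), HOXB13 (-0.01, adjusted p = 0.956) and HOXC13 (-0.09, adjusted p = 0.649) did not pass. HOXD13 did (-0.31, SE 0.06, adjusted p = 0.000443).

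**Figure D5:**
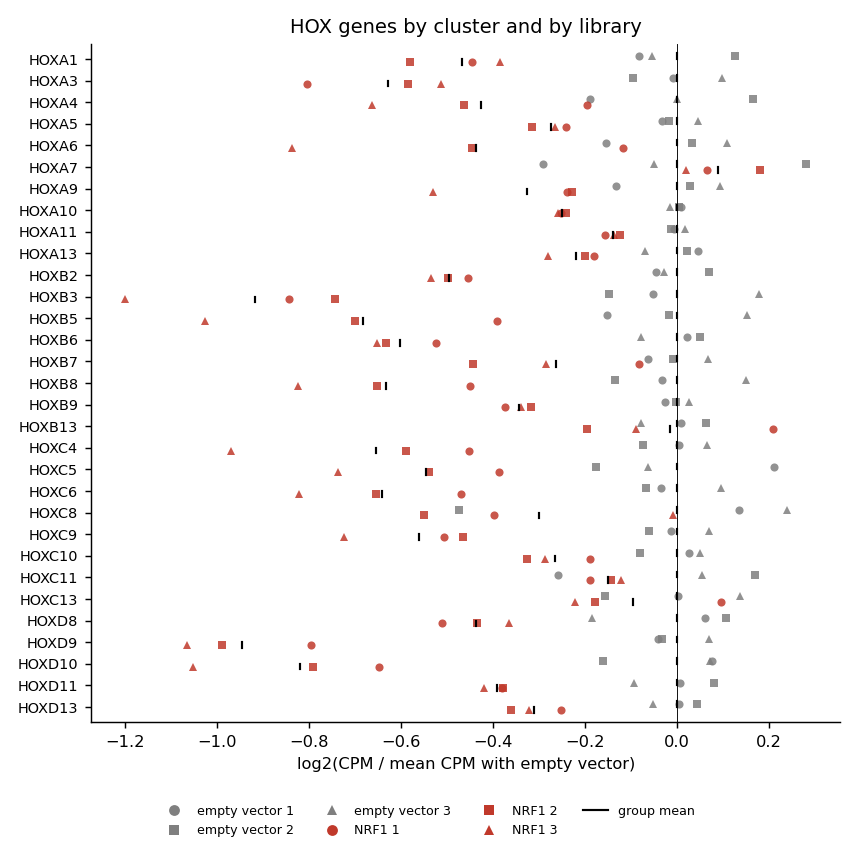
The 31 HOX genes whose mean count was 50 or more, ordered by cluster and number, as log2 of each library's CPM over the mean CPM with empty vector (x axis), drawn as for the genes that rose. In 25 of the 31 the NRF1 libraries all lie below the vector libraries, which 16% of all genes tested do, and in the other 6 the groups overlap. HOXB3, HOXD9 and HOXD10 lie furthest to the left.

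Some partners of HOX proteins and some other regulators of development fell too. Of 10 TALE family cofactors 5 fell (50%, median -0.33), and MEIS2 (-0.42, SE 0.07, adjusted p = 0.000131) and PBX3 (-0.35, SE 0.06, adjusted p = 0.00044) held. Of 20 kidney development factors 6 fell (30%, median -0.20), with TFAP2A at 50.2, 46.7 and 49.3 CPM with empty vector and 36.3, 36.0 and 34.5 CPM with NRF1 (-0.45, SE 0.06, adjusted p = 3.49e-05), followed by GATA3 (-0.44) and FOXD1 (-0.36), all of which held. Among 22 neural transcription factors and neurofilaments 8 fell and 3 rose (36.4% and 13.6%, against 7.12% and 6.46% of all genes, median -0.18). ISL1, a factor of motor neurons, fell by 0.52 (SE 0.10, adjusted p = 0.00106), and NEFM, a neurofilament chain, went the other way, from 106 to 121 CPM to 146 to 182 CPM (0.59, SE 0.08, adjusted p = 0.000538), and both held. PBX3, GATA3, FOXD1 and NEFM did not pass in the fit of 12 libraries.

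Targets of bone morphogenetic protein (BMP) signalling were among the genes that fell in both fits. SMAD6, an inhibitor that BMP signalling induces, was at 77.9, 81.6 and 82.3 CPM with empty vector and 53.4, 51.6 and 51.8 CPM with NRF1 (-0.62, SE 0.06, adjusted p = 4.8e-08). The inhibitors of differentiation ID1, ID2 and ID3, which BMP also induces, fell by 0.58, 0.48 and 0.39 (adjusted p 0.000308, 1.6e-06 and 3.12e-05). SMAD6 and the 3 ID genes passed in both fits, held and did not overlap between groups. In the whole BMP and TGF-beta list 9 of 33 fell and 1 rose (27.3% and 3.03%, median -0.13). BMPER, a secreted BMP modulator, fell by 1.15 (SE 0.22, adjusted p = 0.000977, held).

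Receptors and ligands of axon guidance were lower in 13 of 50 cases and higher in 3 (26% and 6%, median -0.16), and 9 of the 13 held. SEMA3C, a secreted semaphorin, was at 11.96, 11.92 and 11.34 CPM with empty vector and 6.66, 5.59 and 5.59 CPM with NRF1 (-0.98, SE 0.12, adjusted p = 4.41e-06). Its receptor component NRP1 fell by 0.50 (SE 0.07, adjusted p = 2.91e-05), the ephrin receptor EPHA7 by 0.50 (SE 0.06, adjusted p = 9.05e-07) and ROBO1, the receptor of Slit proteins, by 0.39 (SE 0.06, adjusted p = 4.7e-05). All 4 held, and ROBO1 alone did not pass in the fit of 12 libraries. EPHB2 rose by 0.38 (adjusted p = 0.00453, held but did not pass in the fit of 12 libraries). In the Wnt list 4 of 36 fell and 1 rose (11.1% and 2.78%, against 7.12% and 6.46% of all genes). Those that fell included FZD4, a Wnt receptor of few counts (-1.05, SE 0.24, adjusted p = 0.00462), and WNT5A, a ligand (-0.71, SE 0.16, adjusted p = 0.00344). WNT5A held but did not pass in the fit of 12 libraries. The FZD4 call was lost without empty vector replicate 3 (adjusted p 0.051). In the hedgehog list 3 of 18 fell and 1 rose (16.7% and 5.56%), and none passed in the fit of 12 libraries. Those that fell were PTCH1 (-0.43), GLI3 (-0.39) and GAS1 (-0.35), of which GAS1 held. The PTCH1 call was lost without empty vector replicate 1 and NRF1 replicate 2 and that of GLI3 without empty vector replicate 1 (adjusted p up to 0.059 and 0.068).

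Some immediate early factors fell as well, while TRIB1 and MYC, described above, were the members that rose. JUN, a subunit of AP-1, was at 169, 185 and 178 CPM with empty vector and 119, 135 and 126 CPM with NRF1 (-0.48, SE 0.06, adjusted p = 1.34e-06). ATF3, a stress-induced factor of the same family, fell from 62.0 to 67.8 CPM to 40.8 to 46.0 CPM (-0.61, SE 0.06, adjusted p = 3.32e-07), and KLF10, an early gene of TGF-beta signalling, by 0.62 (SE 0.08, adjusted p = 3.68e-06). JUN, ATF3 and KLF10 passed in both fits and held. Of the 35 genes on this list 7 fell and 2 rose (20% and 5.71%, median -0.20). Among 37 nuclear receptors 7 fell and 2 rose (18.9% and 5.41%, against 7.12% and 6.46% of all genes, median 0.04). The orphan receptor NR2F1 (-0.61, SE 0.06, adjusted p = 1.6e-07), the glucocorticoid receptor NR3C1 (-0.44, SE 0.07, adjusted p = 0.000147) and the retinoic acid receptor RARB (-0.43, SE 0.10, adjusted p = 0.00453) passed in both fits and held. TSC22D3, a glucocorticoid-induced gene, fell from 57.5 to 58.9 CPM to 38.5 to 42.3 CPM (-0.52, SE 0.06, adjusted p = 1.79e-06, held).

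Single genes of other lists that fell in both fits and held were H1F0, a linker histone of non-dividing cells (-0.62, SE 0.06, adjusted p = 8.17e-08), DDB2, a p53 target of DNA repair (-0.55, SE 0.07, adjusted p = 1.35e-05), STAT2, a transducer of interferon signals (-0.50, SE 0.08, adjusted p = 0.000292), and LAMA3, a laminin chain (-0.45, SE 0.09, adjusted p = 0.00176). In the lists of DDB2, STAT2 and LAMA3, 4 of 28 p53 targets fell and 1 rose (14.3% and 3.57%, against 7.12% and 6.46% of all genes), 1 of 21 interferon genes fell and 2 rose (4.76% and 9.52%), and 6 of 37 matrix genes fell and 4 rose (16.2% and 10.8%). Of 23 cadherins 4 fell and 2 rose (17.4% and 8.7%) and of 31 integrins and other adhesion receptors 3 fell and 2 rose (9.68% and 6.45%). Of 46 genes of mitosis and DNA replication 3 fell and 1 rose (6.52% and 2.17%), of 33 chromatin remodelers 1 fell and 2 rose (3.03% and 6.06%), of 24 Polycomb subunits 1 fell and 2 rose (4.17% and 8.33%), and of 26 autophagy and lysosome genes 0 fell and 3 rose (0% and 11.5%).

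Noncoding RNAs fell more often than they rose. Among 1117 long noncoding RNAs 1.34% rose and 11.8% fell (median -0.19), and among 12697 protein-coding genes 7.29% rose and 6.48% fell (median 0.01). Their median mean counts were 39.17 and 394.8, and as said above genes with few counts seldom passed as higher. Of 51 small nucleolar and Cajal body RNAs 13 fell and 1 rose (25.5% and 1.96%, median -0.52). Their median mean count was 20.2, 4 of the 13 held, and DESeq2 called 3 lower. SNORD47 was at 5.28, 4.24 and 4.27 CPM with empty vector and 2.32, 2.03 and 1.52 CPM with NRF1 (-1.23, SE 0.20, adjusted p = 0.000173, held). Of the 18 host genes of small nucleolar RNAs 8 fell (44.4%, median -0.38). SNHG12 went from 16.4, 18.1 and 20.8 CPM to 11.9, 10.0 and 7.55 CPM (-0.90, SE 0.13, adjusted p = 0.000117, held), and GAS5 fell by 0.78 (adjusted p = 0.0188), a call lost without empty vector replicates 2 and 3 and NRF1 replicate 2 (adjusted p up to 0.094). Among 426 genes of the ZNF series 37 fell and 3 rose (8.69% and 0.704%, against 7.12% and 6.46% of all genes, median -0.11), with ZNF608 from 23.0 to 26.4 CPM to 13.1 to 15.6 CPM (-0.80, SE 0.09, adjusted p = 1.34e-06, held).

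CHKB-CPT1B and IQCJ-SCHIP1 also join neighbouring genes, and their values are uncertain for that reason. CHKB-CPT1B was at 63.3, 59.8 and 64.0 CPM with empty vector and 36.2, 32.3 and 25.9 CPM with NRF1 (-0.99, SE 0.09, adjusted p = 5.61e-07), while CHKB had no count and CPT1B at most 6 in any of the 6 libraries under its own name. IQCJ-SCHIP1 went from 9.39, 9.95 and 9.20 CPM to 3.91, 3.70 and 3.49 CPM (-1.36, SE 0.14, adjusted p = 2.02e-07), while SCHIP1 under its own name did not pass (0.02, adjusted p = 0.926). Both calls held and passed in both fits. GH2, a placental growth hormone gene named here after its values were seen, had 69, 89 and 62 counts with empty vector and no count in the NRF1 libraries, which at a floor of 3 counts per library makes it at least 24.7-fold lower. It was also at 0 or 1 count in each of the 6 NRF2 and NRF3 libraries, and the cause was not tested.

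Set directly against NRF2, NRF1 left 56 of 14565 genes higher (0.384%) and 244 lower (1.68%). The first count was 20 without NRF1 replicate 2, 151, 33 and 28 without NRF2 replicates 1, 2 and 3, and 31 in the fit of 12 libraries, and the second was 158 both without NRF2 replicate 3 and in the fit of 12 libraries. With NRF1 over NRF2, HMOX1 had a log2 fold change of -1.32 (SE 0.08, adjusted p = 1.71e-08), GCLM one of -1.87 (SE 0.07, adjusted p = 6.36e-12) and NQO1 one of -2.70 (SE 0.10, adjusted p = 3.95e-12). TRIB1 was higher with NRF1 than with NRF2 (199 against 144 CPM, 0.47, SE 0.07, adjusted p = 0.000261), as were KRT8 (0.44, adjusted p = 0.0205) and FAM84B (0.45, adjusted p = 0.000443). ATF3 was lower (43.0 against 66.4 CPM, -0.63, SE 0.08, adjusted p = 5.31e-05). HOXA10, HOXD9 and SMAD6, which fell against vector, were higher with NRF1 than with NRF2 by 0.46, 0.61 and 0.37 (adjusted p 0.00013, 0.0216 and 0.0135). COX1 was at a like level, with a difference of 0.02 and an SE of 0.17. Both comparisons use the same 3 NRF1 libraries, so their errors are shared.

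Against NRF3, 1 of 14581 genes was higher (0.00686%) and 4 were lower (0.0274%) with NRF1, in libraries where NRF3 had the largest spread. TSC22D3 was lower with NRF1 than with NRF3 (40.4 against 65.1 CPM, -0.69, SE 0.09, adjusted p = 0.0316), as was IQCJ-SCHIP1 (-1.38, SE 0.15, adjusted p = 0.0097). HSPA6, an inducible HSP70, had a mean of 0.798 CPM with NRF1 and 5.09 CPM with NRF3 (-2.66, SE 0.22, adjusted p = 0.00102). HMOX1 had a difference of 0.70 (SE 0.12) and did not pass here (adjusted p = 0.207), while in the fit of 12 libraries it did (adjusted p = 0.00748). Without NRF3 replicate 2 the counts became 309 and 145, and with each other library left out 1 to 2 and 1 to 9. The gene that was higher, ARPC4-TTLL3, again joins neighbouring genes and was listed with no count in the NRF3 libraries.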

How the data were processed

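Total RNA of HEK293T cells was sequenced at BGI, 3 libraries for each of 4 plasmids. The authors estimated transcript abundance in the DNASTAR Lasergene Genomics Suite on GRCh37.p13, and the deposited values are estimated counts per gene, with 0.009 where a gene had no count. Its version, filters and handling of shared or antisense reads are not given in the sources used. Among values from 0.5 upward, 5.955% were not whole (tolerance 1e-06), and all values were rounded to whole counts. The table names the vector libraries Vehicle, which was matched to the empty vector labels, and 0 columns of other samples were left out.

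Genes with too few counts were removed (filterByExpr, minimum count 10), libraries were scaled by trimmed mean of M values, and each gene was tested with edgeR 4.0.16 (quasi-likelihood, robust, R 4.3.3) over the 6 compared libraries, with Benjamini-Hochberg adjustment over all genes tested and a threshold of 0.05. The SE is the log2 fold change over the square root of F. CPM values share 1 scale over all 12 libraries. The p-values measure the spread between these libraries. The alternatives were the fit of 12 libraries, DESeq2 1.42.0, other scalings, filters and thresholds, a replicate block, an unequal variance test on the deposited values, the transfected genes removed, each library left out, and the mitochondrial genes removed, the last chosen after seeing the data. A loss of a call is given for libraries left out.

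The comparison, the 50 gene lists and the tests were chosen with earlier results of these data known, and the pattern that collects mitochondrial transfer and ribosomal RNAs was changed once the symbols in the table were seen, the last time to drop 2 nuclear genes, TRNP1 and TRNT1. Genes were named by a rule: genes the study names, the 20 largest changes each way in both fits at a mean count of at least 50 without overlap, up to 4 members of each list by adjusted p and up to 2 by size each way, the 6 most abundant genes called each way in both fits, and the 10 largest changes of each direct comparison. ARPC4-TTLL3, BMPER, FAM84B, GH2, HOXA10, HOXA13, HOXB13, HOXC13, HOXD13, HSPA6, LINC00346, SCHIP1 and TXNDC5 fall outside it and were added with their values in view. Of 14649 genes tested, 13980 matched a RefSeq entry by name, which gave the classes and, on GRCh38.p14, the promoters. Lists are described by counts and medians, with no set test. Some results are not reported here.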

Additional observations from a re-analysis of the deposited data

How the results depend on the processing

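The fit of 12 libraries gave 36 genes higher and 229 lower than with empty vector, 31 and 158 than with NRF2 and 7 and 53 than with NRF3. DESeq2 gave 595 and 570 against empty vector and 4 and 39 against NRF3. The unequal variance test without adjustment gave 1476 higher, a log2 fold change above 1 left 4 and 75, and an adjusted p under 0.01 left 236 and 432. With single libraries left out the counts ran from 184 to 2015 higher and 481 to 1907 lower against empty vector, from 20 to 151 and 158 to 243 against NRF2, and from 1 to 309 and 1 to 145 against NRF3; the highest count against NRF2 came without NRF2 replicate 1 and the lowest without NRF1 replicate 2. Replicate numbers did not pair the libraries (correlations of deviations of -0.0892, -0.0692 and 0.00302), and a replicate block gave 1312 and 1317 against empty vector, 29 and 156 against NRF2 and 2 and 21 against NRF3. Scaling, filter, removal of the transfected genes and removal of the mitochondrial genes, the last chosen after seeing the data, gave 784 to 1047 higher and 963 to 1127 lower. None of the named genes that passed against empty vector changed sign in that comparison under any alternative run. Of those that did not pass, DNAJA2 changed sign under the unequal variance test (0.0103) and without single libraries (-0.0667 to 0.0434), DNAJC1 under the unequal variance test (0.0011), NQO1 at a minimum count of 50 (-0.0045), without the mitochondrial genes (-0.0024) and without single libraries (-0.0777 to 0.0973), PSMA4 without single libraries (-0.0239 to 0.0641) and SCHIP1 likewise (-0.0474 to 0.132). The signs of HOXB13 and HOXC13 under the alternatives were not followed, and those of single genes in the direct comparisons with NRF2 and NRF3 are not given. The causes were not tested. Depth limits the genes with few counts, as given with the SE by count.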
